A study of Rattus norvegicus with 9 samples.

Results

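The transcriptional brakes on myelination described here are 10 genes whose products hold back the program that turns an oligodendrocyte progenitor into a myelinating cell: Id1, Id2, Id3, Id4, Hes1, Hes5, Hey1, Sox5, Sox6 and Myef2. They were found by gene symbol among the annotated probes. Of the 10 genes, 9 had a probe, out of 12167 genes measured in all. They had 14 probes of the 35129 on each array, with 2 probes each for Id3, Id4, Hes5, Sox5 and Myef2. No probe was named for Sox6, so it was not analysed here. The set was put together with population differences of these data already known, those of Myef2 in particular, so the levels by population are given as a description.

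RNA came from oligodendrocyte progenitor cultures of newborn rats, from which 3 cell populations were taken. The first group was O4 cells, which carried the O4 antigen, a sulfatide epitope of later progenitors and premyelinating cells, and lacked NG2. The second was NG2/A2B5 cells, which carried NG2, a membrane proteoglycan of progenitors, together with A2B5, a ganglioside epitope. The third was NG2 cells, which carried NG2 only. No genotype, strain or treatment was named in the labels. Each population was hybridised to 3 arrays that carry the numerals I, II and III. According to the series text there were 3 cultures. Nothing in the labels ties a numeral to one of them, so each p-value covers only the spread among the 9 arrays, which may be technical.

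A progenitor that receives Notch signal releases the intracellular part of Notch, which joins the DNA-binding protein RBPJ and switches on the Hes and Hey genes. Their products are basic helix-loop-helix (bHLH) repressors that silence proneural and myelin gene activators with the help of Groucho corepressors. Bone morphogenetic protein (BMP) signal works through Smad proteins and raises the Id genes, whose products lack a DNA-binding domain and tie up the E proteins that Olig1 and Olig2 need as partners. In mice, Sox5 and Sox6 compete with Sox10 at myelin gene promoters, and Myef2 (myelin expression factor 2) binds the promoter of the myelin basic protein gene and represses it.

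The 250 bases before the transcription start of 4 members are shown because Id1 and Id3 moved together over the 9 arrays while Hes1 and Hes5, both textbook Notch targets, did not. They are RefSeq sequences of the rat assembly GRCr8, read 5′ to 3′ on the strand of the gene. Capitals mark the RBPJ core in Hes1 and Hes5 and the E-box, the site of bHLH proteins, in Id1. The Id3 sequence has no capitals because no E-box was found in it.
Hes1: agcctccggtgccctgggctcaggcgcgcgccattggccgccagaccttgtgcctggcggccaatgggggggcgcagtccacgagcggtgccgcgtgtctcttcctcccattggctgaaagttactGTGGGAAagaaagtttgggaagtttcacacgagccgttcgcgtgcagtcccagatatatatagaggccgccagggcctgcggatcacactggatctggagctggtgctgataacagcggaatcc
Hes5: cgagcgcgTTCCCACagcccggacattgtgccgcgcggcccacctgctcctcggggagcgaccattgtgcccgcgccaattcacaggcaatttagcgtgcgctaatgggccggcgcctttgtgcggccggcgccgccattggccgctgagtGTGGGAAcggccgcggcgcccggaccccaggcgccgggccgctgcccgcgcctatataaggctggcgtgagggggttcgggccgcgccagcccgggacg
Id1: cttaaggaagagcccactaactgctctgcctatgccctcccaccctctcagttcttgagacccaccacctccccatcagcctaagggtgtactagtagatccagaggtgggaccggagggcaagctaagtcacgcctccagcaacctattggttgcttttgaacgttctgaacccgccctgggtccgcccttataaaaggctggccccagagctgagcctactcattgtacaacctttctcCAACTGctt
Id3: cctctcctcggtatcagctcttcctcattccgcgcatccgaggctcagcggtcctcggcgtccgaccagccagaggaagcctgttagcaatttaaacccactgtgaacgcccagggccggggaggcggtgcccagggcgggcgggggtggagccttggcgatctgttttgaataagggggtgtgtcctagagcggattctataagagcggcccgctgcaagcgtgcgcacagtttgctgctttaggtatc
Hes1 lies on the minus strand at chr11:84213046-84213295, Hes5 on the plus strand at chr5:170804327-170804576, Id1 on the plus strand at chr3:161671314-161671563 and Id3 on the plus strand at chr5:153656041-153656290.

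Both strands were searched for 4 motifs in windows of 300 bases, from 250 before to 50 after the start, which were at hand for 8 of the 10 members. The RBPJ core, GTGGGAA, was present in 6.29% of 33469 rat windows. Hes1 had 1 such core, from base -124 to -118 before the start. Hes5 had 2, one from -242 to -236 that reads TTCCCAC on the strand shown, and one from -99 to -93. The other members with a window, Id1 to Id4, Sox6 and Myef2, had none. The E-box, CANNTG, was present in 72.1% of windows, and Id1 had 1, from -9 to -4. Id2 and Myef2 also had 1 each, Sox6 had 2, and Hes5 had 1, from -210 to -205, which is not in capitals. The N-box, CACNAG, a site of Hes proteins, was present in 43.1% of windows, 4 times in Hes1 and once each in Id2 and Sox6. The GC-rich Smad element, GGCGCC, was present in 11% of windows, 4 times in Hes5 and once in Id4. Id3 had none of the 4 motifs. No site of 1 motif overlapped a site of another in these windows. A match of letters is a description of the sequence and does not show that a factor binds there.

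Levels are the authors' scaled intensities, which have no physical unit, or their log2. A probe was taken as readable on an array where it lay above that array's 25th percentile, which was 0.205 to 0.255. Array medians were 1.05 to 1.07. Id1, Id2, Hes1, both Id3 probes, both Myef2 probes and the brighter probes of Id4 and Sox5 were readable on all 9 arrays. The brighter Hes5 probe was readable on 5 of 9 arrays and the dimmer on 2. The dimmer Id4 probe was readable on 5, Hey1 on 1 and the dimmer Sox5 probe on none. Unless the dimmer probe is named, values are from the brighter probe of a gene.

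Genes that define the lineage of the cells were read. Sox10, Cspg4 (the gene of NG2), Cnp, Olig1 and Olig2 were readable on all 9 arrays, Pdgfra on 8 and Mbp on 6. Of all 12167 genes, 8899 were readable on all 9 arrays, so being readable does not identify a lineage. Olig2 and Pdgfra were dim, with mean log2 levels of -0.92 and -1.07. Cspg4 had a mean log2 level of 7.07 and was readable also on the O4 arrays, whose cells are labelled NG2 negative. Of its variance over the 9 arrays, 16.4% lay between populations. NG2 protein was not measured here. Of the astrocyte markers, 10 of 11 were measured, 5 of them readable on all 9 arrays; Gfap was readable on 6 and Gjb6 on 2. Summed astrocyte marker intensity was 73.4 to 165 on O4 arrays, 108 to 168 on NG2/A2B5 arrays and 97.4 to 120 on NG2 arrays. Summed microglia markers (11 measured, 3 readable on all arrays) were 11.3 to 16.4 on O4, 11.0 to 12.2 on NG2/A2B5 and 11.7 to 13.0 on NG2 arrays. The sums for neuron, endothelial, and pericyte and fibroblast markers overlapped between the populations too. Their part in the population differences was not tested. Each sample was a pool of cells, so a lower share of cells with a transcript and less of it per cell cannot be told apart.

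Across the populations, Myef2 was the member that separated most, with its highest level in NG2 cells. Its brighter probe read 21.0, 21.4 and 21.3 on O4 arrays I, II and III. It read 21.7, 27.8 and 25.8 on NG2/A2B5 arrays and 43.1, 45.5 and 39.7 on NG2 arrays. All 6 arrays of the other populations lay below all 3 NG2 arrays, and the O4 arrays lay below the NG2/A2B5 arrays by a small gap. The means were 21.2 ± 0.232 in O4 cells, 25.1 ± 3.13 in NG2/A2B5 cells and 42.7 ± 2.94 in NG2 cells (intensity, SD, n = 3 each). The log2 difference was -1.01 for O4 against NG2, a level in O4 cells 0.497 times that in NG2 cells. For NG2/A2B5 against NG2 it was -0.77, a ratio of 0.586, and for O4 against NG2/A2B5 it was -0.24. Within numerals I, II and III, the O4 against NG2 difference was -1.04, -1.09 and -0.90, and the NG2/A2B5 against NG2 difference was -0.99, -0.71 and -0.62. These are the values for which Myef2 was chosen.

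The dimmer Myef2 probe did not show a separation of this size. It read 1.55, 1.86 and 1.63 on O4 arrays I, II and III, 1.56, 1.86 and 1.67 on NG2/A2B5 arrays and 1.68, 1.91 and 2.01 on NG2 arrays. The O4 and NG2/A2B5 arrays overlapped the NG2 arrays. Its log2 difference was -0.15 for O4 against NG2 (95% interval -0.51 to 0.20), below 0 within each numeral at -0.12, -0.05 and -0.30. For NG2/A2B5 against NG2 it was -0.14. Averaging the log2 values of both probes moved the O4 against NG2 difference of Myef2 to -0.58 and the NG2/A2B5 against NG2 difference to -0.46. The transcripts of Myef2 that each probe reads were not looked up, since probe sequences were not used here. Over the 9 arrays the 2 probes correlated with Pearson's r of 0.60, a description over 9 arrays that share 3 populations.

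**Figure D1:**
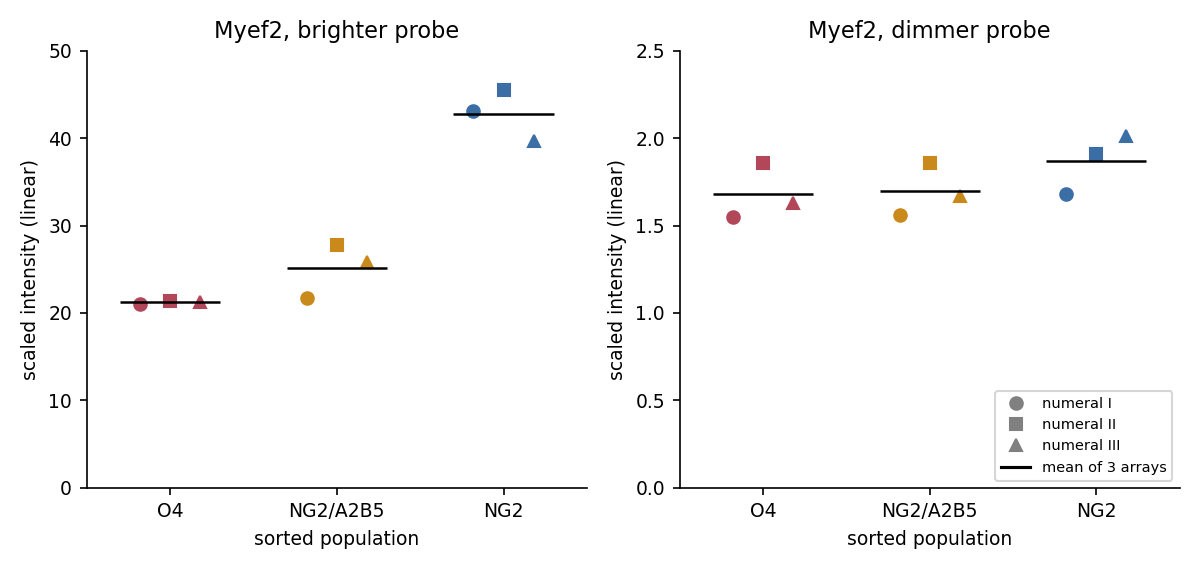
Scaled intensity, on a linear axis from 0, of the brighter and the dimmer Myef2 probe on each of the 9 arrays, by population, with symbols for numerals I, II and III and a bar at the mean of 3 arrays. For the brighter probe the 3 NG2 arrays, at 39.7 to 45.5, lie above all other arrays, and for the dimmer probe the populations overlap.

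No member passed an adjusted p of 0.05 between populations in limma. In O4 against NG2, 0 of 9 members passed, where 0.00822% of 12165 genes passed and 973 had an unadjusted p under 0.05. In O4 against NG2/A2B5, 0 of 9 passed, where 0.00822% of genes passed and 399 had such a p. In NG2/A2B5 against NG2, 0 of 9 passed, where 0% of 12166 genes passed and 545 had such a p. Of the 8 members other than Myef2, 0 had an unadjusted p under 0.05 in each of the 3 comparisons. That model leaves the numeral out. With the numeral as a fixed block, Hes5 had a limma p of 0.00332 in NG2/A2B5 against NG2 (adjusted 0.407). In O4 against NG2/A2B5 it had 0.0224 (adjusted 0.804). Its standard error was 0.23 with the block, against 0.63 without. Under the block 2 of 9 members had an unadjusted p under 0.05 in each of these comparisons, where 1057 and 738 genes did. The 3 contrasts share arrays pairwise, so they are not independent of each other.

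The members did not all move in 1 direction in any of the 3 comparisons. The counts include Hey1, readable on 1 of 9 arrays. In O4 against NG2, 5 members were higher and 4 lower, with a median log2 difference of 0.07, beside 0.02 over all genes. In O4 against NG2/A2B5, 5 were higher and 4 lower, with a median of 0.29, beside 0.02. In NG2/A2B5 against NG2, 2 were higher and 7 lower, with a median of -0.35, beside -0.01. Arrays of both groups did not overlap for 1 member in O4 against NG2 (Myef2), where this held for 14% of genes, 7.51% higher and 6.54% lower. They did not overlap for 2 members in O4 against NG2/A2B5, Hes1 higher and Myef2 lower, where it held for 8.67% of genes, 5.3% higher and 3.37% lower. In NG2/A2B5 against NG2 they did not overlap for 2 members, Id2 and Myef2, both lower, where it held for 10.2% of genes, 5.19% higher and 5% lower.

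**Figure D2:**
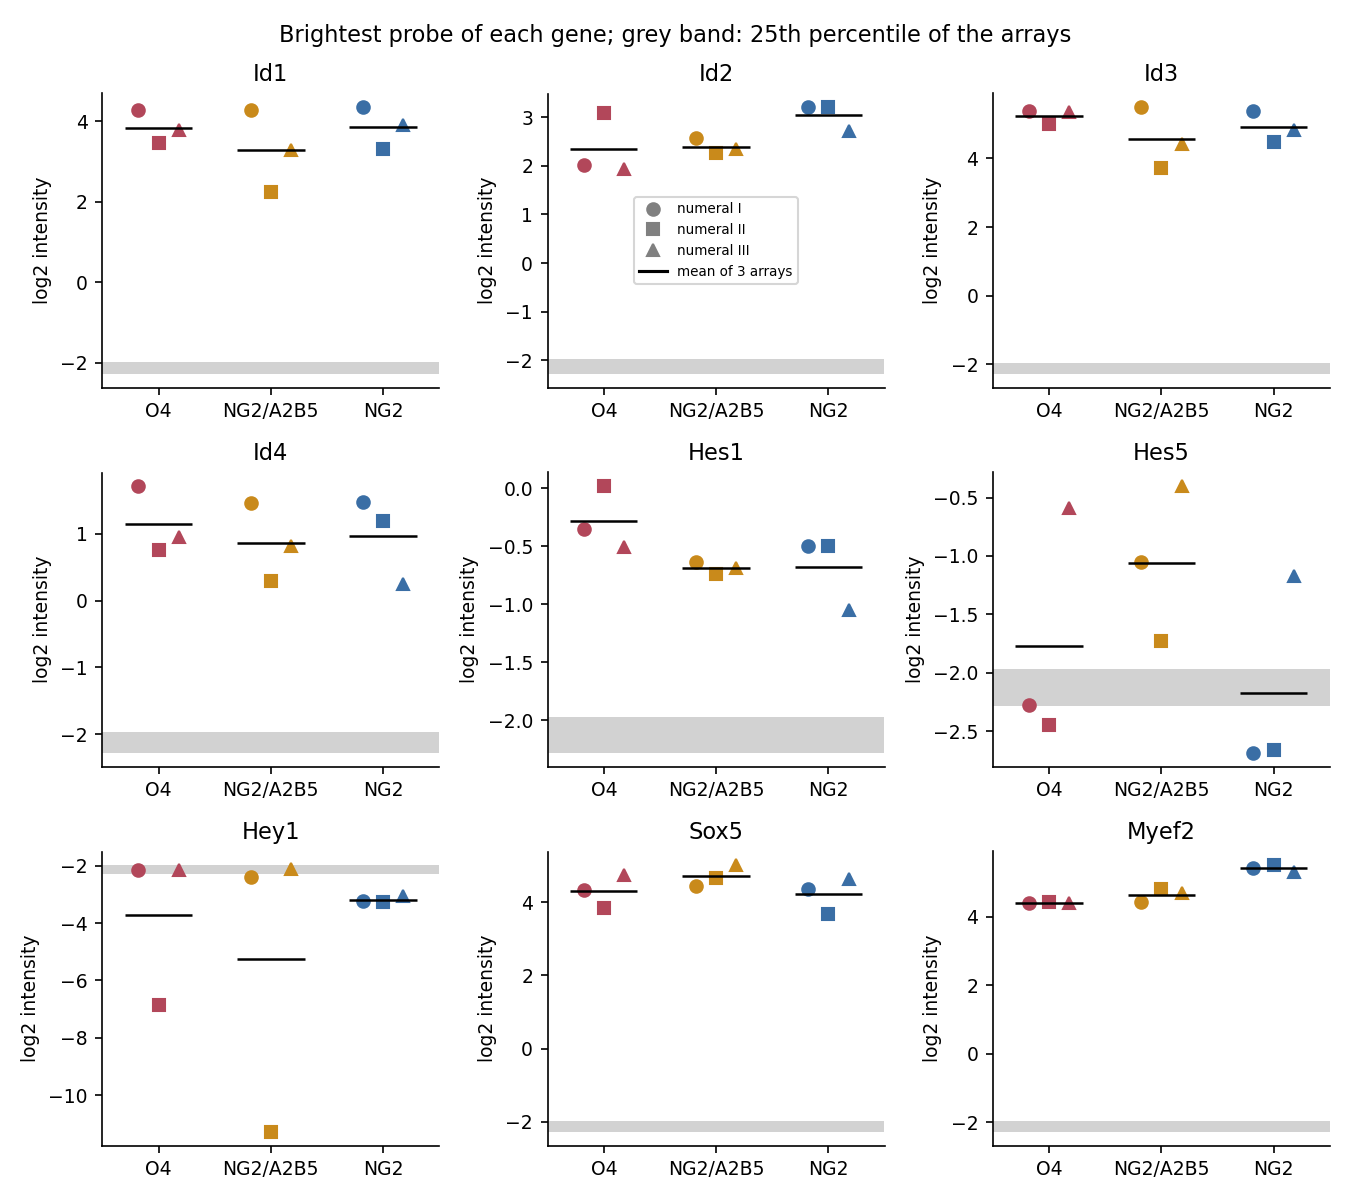
Log2 intensity of the members' brighter probes on each array, by population from O4 to NG2, with symbols for the numerals, a bar at the mean of 3 arrays and a grey band at the range of the arrays' 25th percentiles. Only for Id2, Hes1 and Myef2 do all arrays of 1 population lie to one side of another's, Hey1 lies at or below the band, and its lowest point is a value at or below 0 that took the smallest positive value of its array.

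Among the Id genes, Id2, which in progenitors is known as an inhibitor of differentiation, was highest in NG2 cells. It read 4.05, 8.49 and 3.81 on O4 arrays I, II and III, 5.89, 4.81 and 5.05 on NG2/A2B5 arrays and 9.22, 9.25 and 6.54 on NG2 arrays. All NG2/A2B5 arrays and 2 of the 3 O4 arrays lay below all NG2 arrays, and O4 array II lay among the NG2 arrays. Its log2 level was 2.34 ± 0.64 in O4 cells, 2.39 ± 0.15 in NG2/A2B5 and 3.04 ± 0.29 in NG2 cells (SD, n = 3 each). The difference was -0.70 for O4 against NG2 (95% interval -1.44 to 0.05, limma adjusted p 0.645) and -0.65 for NG2/A2B5 against NG2 (-1.40 to 0.09). Both differences were below 0 within each numeral. Without O4 array II the O4 against NG2 difference of Id2 was -1.07.

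Id1, an Id gene that BMP signal raises, read 19.6, 10.9 and 13.9 on O4 arrays I, II and III. It read 19.5, 4.77 and 9.88 on NG2/A2B5 arrays and 20.5, 10.0 and 15.0 on NG2 arrays. The populations overlapped and the 3 arrays numbered I were nearly level at the top. The log2 difference of Id1 was -0.02 for O4 against NG2 (95% interval -1.21 to 1.18), 0.56 for O4 against NG2/A2B5 (-0.63 to 1.76) and -0.58 for NG2/A2B5 against NG2 (-1.78 to 0.62).

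Id3, a close relative of Id1, read 41.5, 32.2 and 40.7 on O4 arrays I, II and III. It read 45.4, 13.3 and 21.5 on NG2/A2B5 arrays and 41.3, 22.5 and 28.7 on NG2 arrays. The lowest level was again on NG2/A2B5 array II, and the populations overlapped. Its dimmer probe was likewise lowest on NG2/A2B5 array II, with 28.4, 14.4 and 31.1 on O4 arrays, 30.8, 7.90 and 17.1 on NG2/A2B5 arrays and 29.5, 12.1 and 18.1 on NG2 arrays. The log2 difference of Id3 was 0.34 for O4 against NG2 (95% interval -0.67 to 1.36) and 0.69 for O4 against NG2/A2B5 (-0.32 to 1.70).

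Id4, which in mice takes part in the timing of oligodendrocyte differentiation, read 3.29, 1.69 and 1.95 on O4 arrays I, II and III. It read 2.75, 1.22 and 1.77 on NG2/A2B5 arrays and 2.79, 2.28 and 1.19 on NG2 arrays. The populations overlapped throughout, with log2 levels of 1.15 ± 0.50 in O4 cells, 0.86 ± 0.59 in NG2/A2B5 and 0.97 ± 0.64 in NG2 cells (SD, n = 3 each).

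Among the Notch effectors, Hes1 was higher in O4 cells by a small margin. It read 0.783, 1.02 and 0.7 on O4 arrays I, II and III, 0.641, 0.6 and 0.62 on NG2/A2B5 arrays and 0.705, 0.708 and 0.483 on NG2 arrays. All O4 arrays lay above all NG2/A2B5 arrays, and O4 and NG2 arrays overlapped. The log2 difference of Hes1 was 0.41 for O4 against NG2/A2B5 (95% interval -0.08 to 0.89) and 0.40 for O4 against NG2 (-0.08 to 0.89). Both were above 0 within each numeral and neither passed.

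Hes5, a Notch target that holds back myelin genes in mice, was highest in NG2/A2B5 cells. It read 0.205, 0.184 and 0.666 on O4 arrays I, II and III, 0.485, 0.3 and 0.76 on NG2/A2B5 arrays and 0.155, 0.158 and 0.443 on NG2 arrays. The populations overlapped because array III was the highest in each of them. The log2 difference of Hes5 was 1.12 for NG2/A2B5 against NG2 (95% interval -0.35 to 2.59), and 1.65, 0.93 and 0.78 within numerals I, II and III. All 3 NG2/A2B5 arrays were readable, but only array III of the O4 and of the NG2 cells was. With low values raised to the 25th percentile the NG2/A2B5 against NG2 difference was 0.79. For O4 against NG2/A2B5 it was -0.71 (-2.18 to 0.76), below 0 within each numeral, and for O4 against NG2 it was 0.40 (-1.07 to 1.88). None passed.

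The dimmer Hes5 probe read 0.0167 to 0.280 and the Hey1 probe, for another Notch target, read -0.0092 to 0.231. Neither can rank the populations at this signal.

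Sox5 read 19.9, 14.3 and 26.5 on O4 arrays I, II and III, 21.7, 25.1 and 32.5 on NG2/A2B5 arrays and 20.7, 12.8 and 24.7 on NG2 arrays. NG2/A2B5 had the highest array within each numeral, and the populations overlapped. The log2 difference of Sox5 was 0.48 for NG2/A2B5 against NG2 (95% interval -0.27 to 1.23), -0.41 for O4 against NG2/A2B5 (-1.16 to 0.34) and 0.07 for O4 against NG2 (-0.68 to 0.82), and none passed. The dimmer Sox5 probe was readable on no array. Averaging it in moved the O4 against NG2 difference of Sox5 to 1.73 and the NG2/A2B5 against NG2 difference to 1.88.

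**Figure D3:**
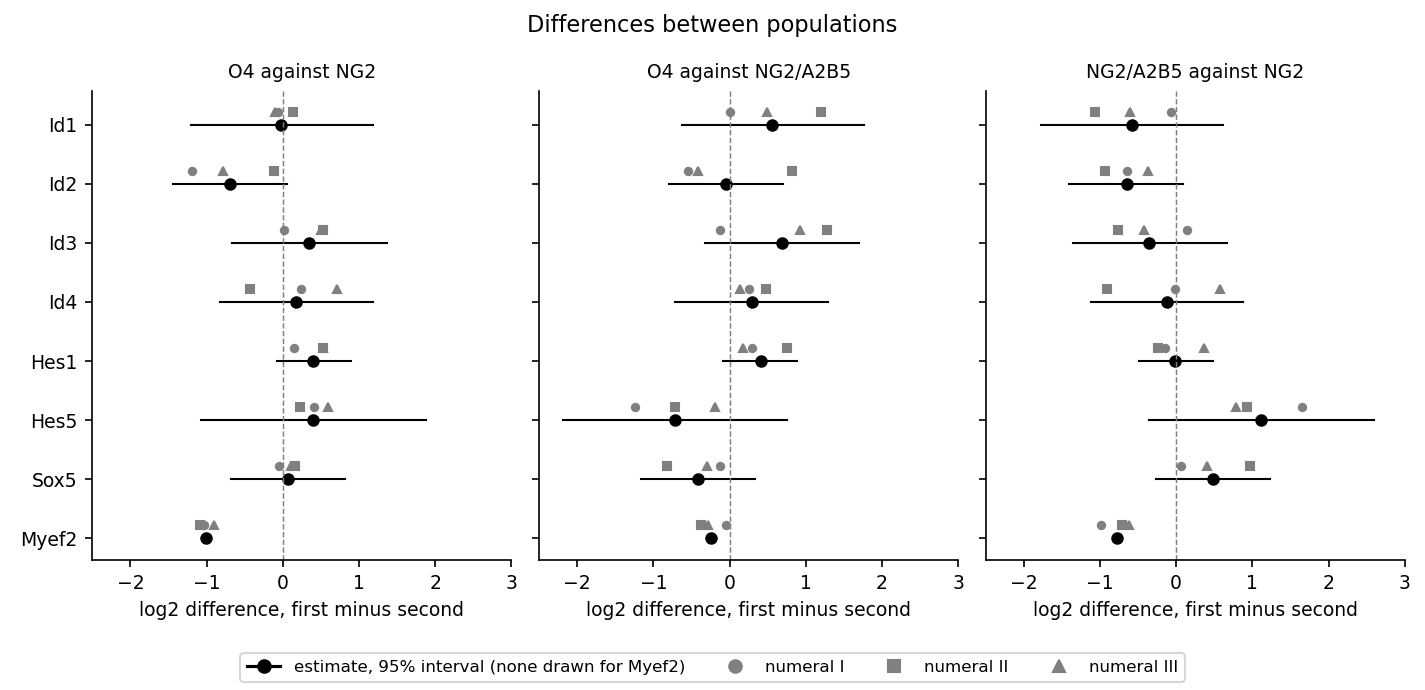
Log2 difference of each member in the 3 pairwise comparisons, first population minus second, with the limma estimate, its 95% interval and the difference within each numeral. No interval is drawn for Myef2, which was chosen for these differences. The interval of each other member, from the model without the numeral, spans 0. Hey1 is left out because its probe was readable on 1 of 9 arrays.

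The numeral was a second way to compare the arrays, with 3 arrays a numeral, 1 from each population, and with the population kept in the model. Hes5 was higher on arrays III than on arrays II. It read 0.666, 0.76 and 0.443 on the O4, NG2/A2B5 and NG2 arrays numbered III, against 0.184, 0.3 and 0.158 on those numbered II. The groups did not overlap, and the O4 and NG2 arrays numbered II were below their 25th percentile. The log2 difference was 1.56 (95% interval 0.99 to 2.13), and 1.86, 1.34 and 1.49 within O4, NG2/A2B5 and NG2 cells (limma adjusted p 0.0373). With values under the 25th percentile set to that percentile the difference was 1.21, with an adjusted p of 0.0151. Of the 9 members, 1 passed in this comparison, where 3.55% of 12166 genes did, 1.64% in the higher direction. The groups did not overlap for 2 members, Hes5 and Hey1, both higher, where this held for 26.5% of genes, 10.5% higher and 16% lower. Hey1 was readable on 1 of 9 arrays, so its order ranks values near or below the 25th percentile, and its difference of 4.70 turned to -0.05 with low values raised to that percentile.

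The Hes5 call was close to the threshold. Leaving out any of the 9 arrays ended it, with estimates of 1.39 to 1.78 and adjusted p of 0.0559 to 0.158, and the same leave-outs took the number of genes passing from 432 to between 0 and 5. It was also lost when every probe was tested as a feature (adjusted p 0.0533), with no population factor (0.101), and with the mean of both Hes5 probes, where the difference was 0.67 (0.546). The dimmer Hes5 probe gave -0.22.

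Summed neuron marker intensity was 27.3 to 33.4 on arrays III, against 19.6 to 24.3 on arrays II, with 6 of 10 markers measured and 3 readable on all arrays. Of the 6, 3 were higher and 3 lower. The sum followed Dcx, named after its values were seen, with a mean intensity of 20.4 on arrays III, against 7.83 on arrays II (log2 difference 1.43, limma adjusted p 0.0718). Gad1 had -0.60, Nefm -1.68 and Nefl 0.26, and Snap25 was readable on no array. Summed astrocyte marker intensity was 120 to 168 on arrays III, against 73.4 to 108 on arrays II. Of the 10 measured, 5 were higher and 5 lower. The sum followed Slc1a3 and Aldoc, named after their values were seen. Slc1a3 had a mean intensity of 83.9 on arrays III, against 58.6 on arrays II, and Aldoc 55.7 against 23.3. Among the lower ones Gja1 had a log2 difference of -2.06. The part of these cells in the Hes5 difference was not tested.

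Id1, Id3 and Id4 had their highest mean levels on arrays I. For Id1 the mean log2 level was 3.01 ± 0.66 on arrays II, against 4.31 ± 0.04 on arrays I (SD, n = 3 each). The difference was -1.30 (95% interval -1.91 to -0.69, limma adjusted p 0.109), and -0.84, -2.03 and -1.03 within O4, NG2/A2B5 and NG2 cells. For Id3 the difference between arrays II and I was -1.01 (-1.69 to -0.32, adjusted p 0.182), and its dimmer probe gave -1.41 (-2.04 to -0.78, adjusted p 0.140). For Id4 it was -0.81 (adjusted p 0.251) and its dimmer probe gave -1.10 (adjusted p 0.219). All arrays numbered II lay below all arrays numbered I for these 3 genes on each of their probes.

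In arrays II against I, 0 of 9 members passed and 4 had an unadjusted p under 0.05, where 0.23% of genes passed and 2087 had such a p. The groups did not overlap for 4 members, all lower on arrays II (Id1, Id3, Id4 and Hey1), where this held for 21.6% of genes, 14.8% higher and 6.77% lower. Hey1 counts among these only by values near or below the 25th percentile, and its difference of -4.54 turned to 0.12 with low values raised to that percentile. Without Hey1, 3 of 8 members had an unadjusted p under 0.05. With trend and robust variance estimates Id1, Id3 and Id4 passed in this comparison. Their limma adjusted p was 0.000678 for Id1, 0.00951 for Id3 and 0.05, at the threshold, for Id4. That setting took the number of genes passing from 28 to 833. Id1 passed also with low values raised to the 25th percentile (0.0285), where 402 genes did. With dim genes left out it passed too (0.0401), where 305 genes did. Summed pericyte and fibroblast marker intensity was 27.0 to 34.0 on arrays II, against 22.2 to 23.5 on arrays I, with 9 of 10 markers measured and 3 readable on all arrays. Col1a1, named after its values were seen, had a mean intensity of 11.8 on arrays II, against 7.6 on arrays I, and Col1a2 15.8 against 14.1. Its part in the Id differences was not tested.

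In arrays III against I, 0 of 9 members passed and 3 had an unadjusted p under 0.05, where 0% of genes passed and 1527 had such a p. The groups did not overlap for 4 members, where this held for 18.4% of genes, 10.2% higher and 8.18% lower. Id1, Id3 and Id4 were lower on arrays III, with log2 differences of -0.64, -0.54 and -0.87, and Sox5 was higher at 0.42. The dimmer Id3 probe had -0.47 and its groups overlapped, while the dimmer Id4 probe had -0.88 without overlap. In arrays III against II, Sox5 differed by 0.74 (95% interval 0.25 to 1.23, limma adjusted p 0.103), above 0 in all 3 populations at 0.89, 0.37 and 0.95. The brighter Myef2 probe differed little between numerals, with log2 differences of 0.05 for arrays III against I, -0.11 for III against II and 0.16 for II against I. The first and the third turned to -0.06 and -0.01 after quantile normalization. The dimmer Myef2 probe had 0.14, -0.09 and 0.23 in the same order. On that probe all arrays II lay above all arrays I (limma adjusted p 0.42).

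**Figure D4:**
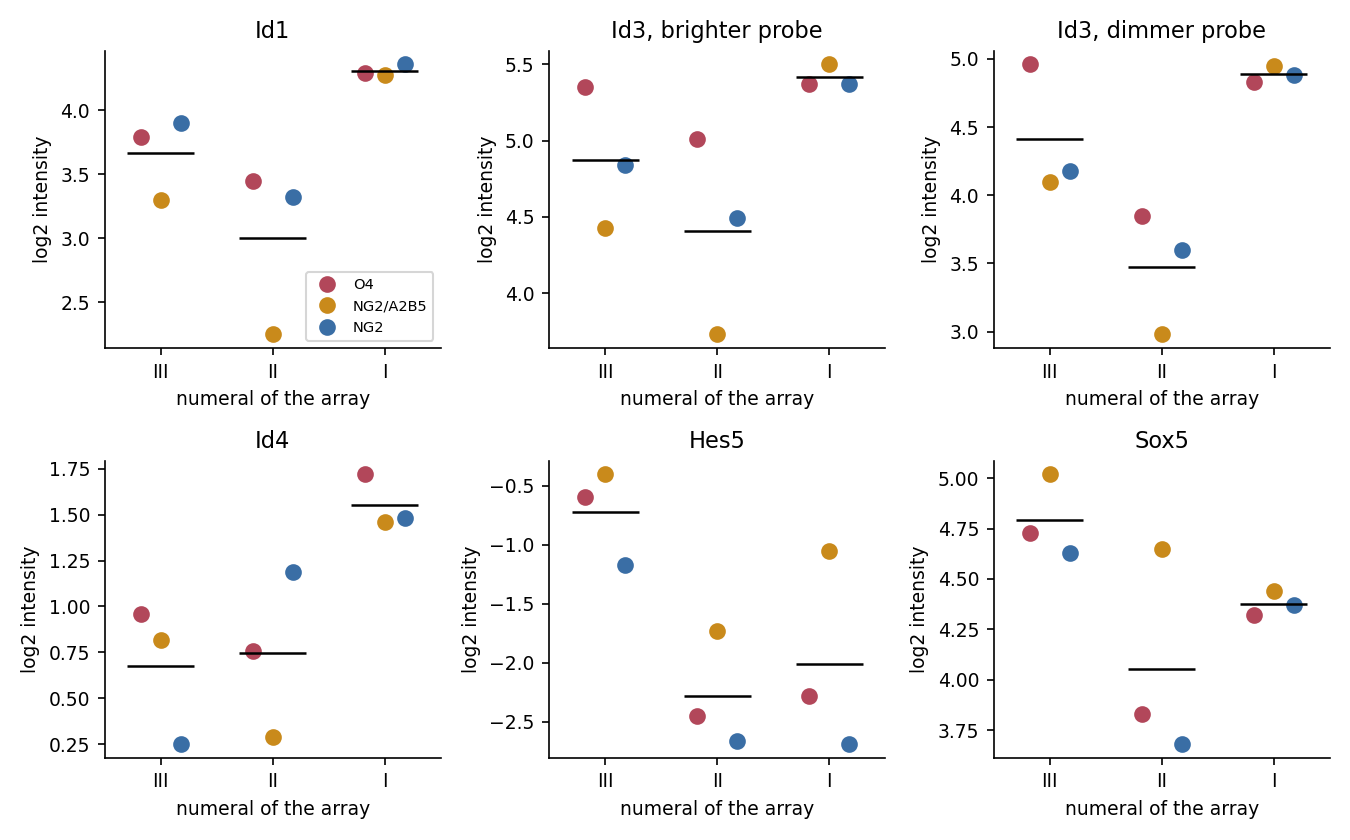
Log2 intensity of Id1, both Id3 probes, Id4, Hes5 and Sox5 on each array, grouped by numeral III, II and I, with points coloured by population and a bar at the mean of 3 arrays. Arrays numbered I are highest and tightly placed for Id1 and the brighter Id3 probe, and within each population array III is the highest for Hes5.

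The share of each member's variance over the 9 arrays that lay between populations or between numerals sums up this contrast between members. For the brighter Myef2 probe, 95% lay between populations and 2.18% between numerals. The population share was higher in 0 of the 8899 genes readable on all 9 arrays, a description of the contrast for which the gene was chosen. Shares were not computed for the dimmer Myef2 probe, also readable on all 9 arrays. Its largest log2 difference was 0.23, for arrays II against I, beside -0.15 for O4 against NG2. For Id1 18.2% lay between populations and 70.3% between numerals, and for Hes5 29.8% and 64.8%. Id3 had 25.6% and 54.7%, Id4 5.99% and 65.8%, and Sox5 27.5% and 56.3%. Id2, with 46.8% and 21.5%, and Hes1, with 47.9% and 28.1%, had the larger share between populations. The medians over the 8899 genes were 20.9% between populations and 40.1% between numerals.

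**Figure D5:**
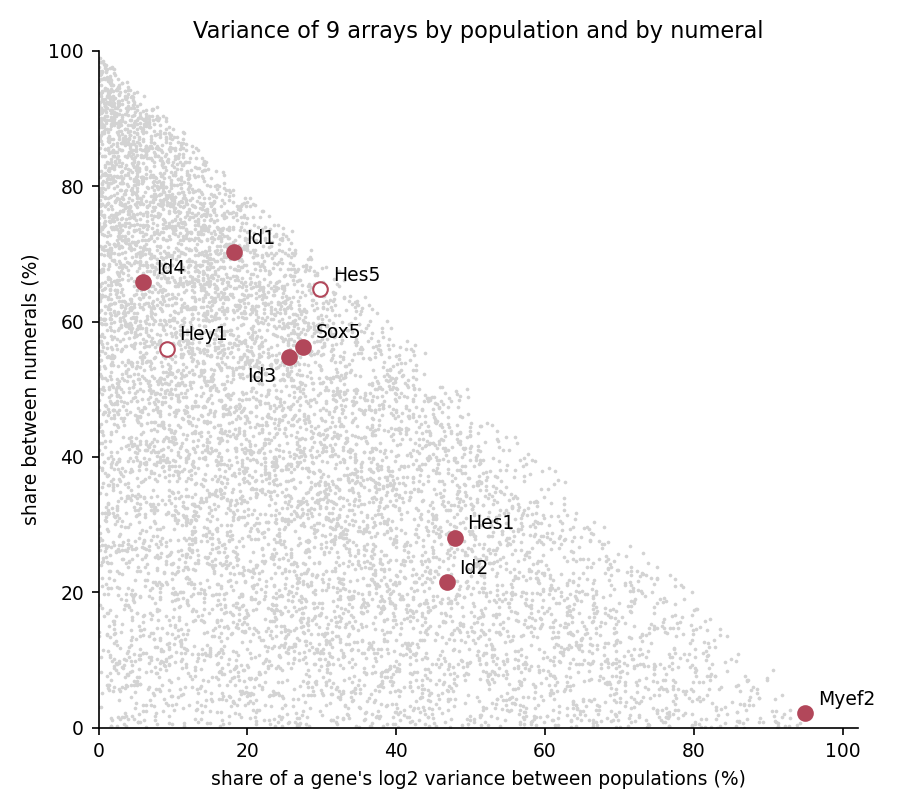
Percent of each member's variance in log2 intensity over the 9 arrays that lay between the 3 populations (horizontal axis) and between the 3 numerals (vertical axis). Grey points are the 8899 genes readable on all 9 arrays, and open circles are the members Hes5 and Hey1, which were not. Each member is shown by its brighter probe. Myef2 stands at 95% between populations, and Id1, Id4 and Hes5 stand above 60% between numerals.

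Over the 9 arrays, Id1 and Id3 followed each other with Pearson's r of 0.94, close to the 0.93 between both probes of Id3. Id1 and Id4 had r of 0.70, and Id1 and Id2 had 0.08. Hes5 and Sox5 had r of 0.82, while Hes1 and Hes5 had -0.52. These are descriptions over 9 arrays that share populations and numerals. By the same measure, among 8876 readable genes, the genes most like Myef2 were Trpm7, an ion channel with a kinase domain, with r of 0.964, Stx4, a syntaxin of the plasma membrane, with 0.954, and Rttn, a centriole protein, with 0.946. Trpm7 had log2 levels of 4.07 ± 0.08 in O4 cells, 4.29 ± 0.14 in NG2/A2B5 and 4.73 ± 0.07 in NG2 cells (SD, n = 3 each). This order follows from the choice of Trpm7 by its likeness to Myef2 on the same arrays. Those most like Id1 were S100a4, a calcium-binding protein, with r of 0.966, Ppp1r14a, an inhibitor of myosin phosphatase, with 0.955, and Prkch, a protein kinase C, with 0.938. Id4 was most like Bmper, a BMP-binding regulator, with 0.944, Hes5 most like Lsamp, a neuronal adhesion molecule, with 0.927, and Sox5 most like Galnt16, a glycosyltransferase, with 0.966. Such values are the highest out of 8876 genes over 9 arrays. Even Hey1, readable on 1 of 9 arrays, reached 0.954 with Syf2. A link between any of these genes was not tested.

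The genes around the members were taken as lists of their pathways, of which no gene passed between populations. Among the Id partners, 5 of 6 E proteins and bHLH activators were measured. Tcf4, an E protein, had a log2 difference of 0.44 in O4 against NG2 (limma adjusted p 0.577), and Tcf3, another, had -0.71 (0.663). Of 9 further Hes, Hey and Bhlhe repressors, 7 were measured, 5 higher and 2 lower in O4 against NG2 with a median of 0.12, and Heyl had 0.42 and Hey2 -0.34. Of the Groucho corepressors, 5 of 6 were measured, 2 higher and 3 lower, and Tle1 had -0.52.

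Of 29 Notch ligands, receptors and effectors, 24 were measured, 13 higher and 11 lower in O4 against NG2 with a median of 0.03. Rfng, which modifies Notch receptors with sugars, had a log2 difference of 0.57 (limma adjusted p 0.577). Of 25 BMP pathway genes, 22 were measured, 12 higher and 10 lower with a median of 0.06. Smad1, a BMP signal carrier, had -0.51 (adjusted p 0.577) and Acvr1, a BMP receptor, had -0.52 (0.625). Of 12 further Sox factors, 8 were measured, 5 higher and 3 lower. Of 19 other brakes on oligodendrocyte differentiation, 16 were measured, 6 higher and 10 lower with a median of -0.16. Of 19 drivers of myelin gene transcription, 15 were measured, 8 higher and 7 lower, and of 20 myelin genes 18 were measured, 10 higher and 8 lower.

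The 6 measured transcripts of proteins that bind the myelin basic protein promoter, or of Myef2 relatives, had lower estimates in the other populations than in NG2 cells. None passed, and protein was not measured. Of 9 listed, 6 were measured. All 6 were lower in O4 than in NG2 cells, with a median log2 difference of -0.18, where 5849 of 12165 genes were lower. All 6 were also lower in NG2/A2B5 than in NG2 cells, with a median of -0.20, where 6278 of 12166 genes were lower. Both comparisons share the NG2 arrays. Hnrnpk, an RNA-binding protein of the same broad class as Myef2, had -0.48 in O4 against NG2 (limma adjusted p 0.632) and -0.24 in NG2/A2B5 against NG2. Hnrnpa2b1, which carries Mbp transcripts in oligodendrocytes, had -0.30 and -0.33, and Hnrnpa1 had -0.28 and -0.36. The same 6 genes were also all lower on arrays III than on arrays II, with a median of -0.44 beside -0.08 over all genes.

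Between arrays III and II, 9 genes of these lists and of the marker lists passed, in a comparison where 3.55% of all genes did. Leaving out any 1 array brought the number passing over all genes down to between 0 and 5, from 432. Of the Notch list 2 of 24 passed, both higher, while in all 12 were higher and 12 lower. They were the receptor Notch1, with a log2 difference of 0.75 (limma adjusted p 0.0360), and Psen2 with 0.96 (0.0257). Psen2 is a subunit of the protease that cuts Notch. Of the BMP list 1 of 22 passed, the secreted BMP inhibitor Chrd with 1.36 (0.0284), while 11 were higher and 11 lower. Of the Id partners 1 of 5 passed, Tcf3 with -0.86 (0.0477), while 2 were higher and 3 lower. Of the drivers of myelin gene transcription 1 of 15 passed, Myrf with 1.69 (0.0274), while 6 were higher and 9 lower. Of the myelin genes 1 of 18 passed, Pllp with 1.27 (0.0445), while 8 were higher and 10 lower. Among the markers, the astrocyte genes Aldoc, with 1.27 (0.0284), and Gfap, with 1.72 (0.0240) and readable on 6 of 9 arrays, were higher, as was the endothelial gene Vwf with 1.95 (0.0225). Most other markers of these lists did not follow them: of 10 astrocyte markers 5 were higher and 5 lower, with Sox9 at -0.50 and Slc1a2 at -0.26, and of 7 endothelial markers 2 were higher and 5 lower, with Esam at -1.11, Tek at -0.82 and Cldn5 at -0.22, none of which passed. Vwf was the only list gene to pass in arrays II against I, with -1.85 (0.0454).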

How the data were processed

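Each sample was hybridised to a one-colour array. Per the labels' protocols, RNA was amplified by 2 rounds of in vitro transcription and spiked synthetic mRNA served for normalization. The deposited values are the authors' scaled intensities on a linear scale; the scanner, the software and any background correction are not stated in the sources used here. No further normalization was applied. The code -9999 was treated as missing, and values at or below 0 (291 to 352 an array) took the smallest positive value of their array before log2.

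Of 35129 probes, 16865 carry 1 symbol, 165 several and 18099 none in GEO's platform annotation; the last 2 classes were left out. Of the probes, 16836 matched the RefSeq table of GRCr8 by Entrez identifier, used for names, and 1 symbol was updated. Each gene was read from its probe with the highest mean, giving 12167 genes.

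Population contrasts came from 1 limma 3.58.1 model over 9 arrays (lmFit and eBayes, two-sided, R 4.3.3; 6 residual and 1.76 prior degrees of freedom). Numeral contrasts added population as a factor. P-values were adjusted by Benjamini-Hochberg over all genes, with a threshold of 0.05. The precision is limited by the number of arrays. The scripts were tested on simulated data.

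The members, the 15 gene lists (202 genes, 168 measured) and the tests were chosen with earlier results of these data known. Named genes were all members, list genes that passed in any contrast or were among the 3 with the smallest p of their list in O4 against NG2, and the 3 genes most correlated with each member; the text gives part of them. Other settings are listed with their effect in the closing section.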

Additional observations from a re-analysis of the deposited data

How the results depend on the processing

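Of 510 values of members in population contrasts under other settings, 506 moved by no more than the replicate spread, whatever their direction. The other 4 are the means of probes of Myef2 and Sox5 given above, which kept their direction. Most of the 506 could not have moved further. Blocks and variance settings leave the estimate of this balanced layout unchanged. Leaving out 1 array cannot shift a population mean by more than the replicate spread used here. The count of 506 is therefore not a measure of robustness. Some of the 506 changed sign. Without 1 array, Hes5 in O4 against NG2 was -0.19 to 0.91, and Hey1 in O4 against NG2/A2B5 was -1.47 to 3.12. No member passed in any population contrast under any setting, left-out arrays included. Over the other settings, Myef2 was -1.06 to -0.58 in O4 against NG2 and -0.82 to -0.46 in NG2/A2B5 against NG2, and -1.06 to -0.96 and -0.85 to -0.67 with 1 array left out.

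The number of genes passing was small and unstable between populations. In O4 against NG2 it was 1, and 0 with the floor at the 25th percentile, with dim genes left out, with trend and robust variance and with only the 6 arrays compared, 2 with the mean of probes, and 1 to 2 without 1 array. In O4 against NG2/A2B5 it was 1, and 0 with the floor, the filter and trend and robust variance, and 0 to 4 without 1 array. In NG2/A2B5 against NG2 it was 0, and 1 with the mean of probes, and 0 to 3 without 1 array. In the F test it was 1, and 0 with the floor, the filter and trend and robust variance, 2 with the mean of probes, and 1 to 4 without 1 array.

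With the numeral as a fixed replicate block, 0 genes passed in O4 against NG2, in O4 against NG2/A2B5, in NG2/A2B5 against NG2 and in the F test, with lowest adjusted p of 0.0878, 0.117, 0.154 and 0.141, and 1597, 738, 1057 and 1217 genes at an unadjusted p under 0.05. With a random block (consensus correlation 0.274) 1, 1 and 0 genes passed in the 3 pairwise contrasts. Deviations from population means correlated by 0.04 to 0.14 between arrays of the same numeral (3 of 9 pairs over 0.1) and by -0.11 to 0.01 between different numerals, so the numerals were not taken to pair the arrays. All 9 arrays correlated best with their own numeral, a hint from the data and not from the design.

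Between numerals, the number of genes passing in arrays III against I was 0, and 49 with the floor, 14 with the filter, 311 with trend and robust variance and 0 to 2 without 1 array. In III against II it was 432, and 1293 with the floor, 1017 with the filter, 1887 with trend and robust variance, 136 with the mean of probes, 216 with every probe tested (chosen after seeing the data) and 0 to 5 without 1 array. In II against I it was 28, and 402, 305, 833, 2 and 3 under those settings in that order, 63 with no population factor and 0 to 3 without 1 array. Members passing in III against II numbered 1, and 2 with the floor (Hes5 and Sox5), 3 with trend and robust variance (Hes5, Sox5 and Id1), 0 with the mean of probes, with no population factor or with every probe tested, and 0 to 0 without 1 array. In II against I they numbered 0, and 1 with the floor, 1 with the filter and 3 with trend and robust variance. Left-out arrays shrink the numeral contrasts to fewer samples by construction; the cause of the other changes was not tested.

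Numeral differences turned round in 13 of 456 values. With quantile normalization Myef2 was -0.06 in III against I and -0.01 in II against I. Hey1, readable on 1 of 9 arrays, was 4.70 in III against II and -4.54 in II against I as reported, and -0.05 and 0.12 with the floor. With the mean of probes Id4 was 0.08 in III against II and Hes5 0.31 in II against I. Without 1 array, II against I of Id2 was -0.10 to 0.55 and of Hes1 -0.02 to 0.24, III against I of Myef2 -0.05 to 0.12 and of Hey1 -1 to 1.27, and III against II of Id4 -0.31 to 0.28. The median of all genes shifted by 0.10 in II against I as deposited and by 0.02 after quantile normalization. Signal limits Hey1, Hes5 and the dimmer probes of Id4 and Sox5, which lie near the 25th percentile of the arrays.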
